A study of Mus musculus with 12 samples.

Results

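The duodenum of C57BL/6N mice kept on a high-fat diet was compared with that of mice kept on regular chow, by RNA sequencing of 3 libraries per group (HFD 4, 30 and 38, and Chow 8, 17 and 19). These are 6 of the 12 libraries of the study, taken by their labels, and all genes of their deposited count table were used. Mice of both groups entered their diet at 6 weeks of age and stayed on it for 18 weeks, and the labels list no treatment for either. The study's other libraries came from mice on the high-fat diet that were injected for 4 days with vehicle (HFD Vehicle) or with the pregnane X receptor ligand PCN (HFD PCN). The HFD Vehicle libraries are given below as levels beside those of HFD, and both injected groups enter 1 alternative fit with all 12 libraries. The labels give each library a number of its own and say nothing on sex, litter or separate animals, so p-values measure the spread between these samples, which may be technical. The diet's composition is not given in the labels, and the text on RNA extraction speaks of liver while the tissue label is duodenum.

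The duodenum is the first stretch of the small intestine. Its absorptive cells, the enterocytes, carry peptidases and disaccharidases on their brush border and take up peptides, amino acids, sugars, iron and fat. They re-esterify fatty acids and export them in chylomicrons. The same cells meet drugs and dietary chemicals first, and make cytochrome P450 enzymes, glutathione transferases, carboxylesterases and glucuronosyltransferases that oxidise, conjugate or hydrolyse them. Many genes of the Cyp3a, Cyp2c and Gstm families are targets of the nuclear receptors PXR (Nr1i2) and CAR (Nr1i3). Between the enterocytes lie T cells of the epithelium, and below them the lamina propria holds macrophages, plasma cells, fibroblasts and vessels.

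Total counts ranged from 4925123 (HFD 4) to 18510000 (HFD 30). Vil1, which encodes villin of the brush border, ranged from 1184 to 2489 CPM (counts scaled to a library total of 1000000). The hepatocyte product Alb ranged from 0.378 to 1.01 CPM, and the Y-linked gene Ddx3y from 66.8 to 86.8 CPM. Each library thus carried brush border and male transcripts and almost no Alb. HFD 4 stood apart from the rest. On the first principal component of the 500 most variable genes (45.8% of their variance) it lay at -32.4, against -14.5 for HFD 30, 1.55 for HFD 38 and 12.9 to 17.7 for the Chow libraries. The transcript CT010467.1, annotated as ribosomal RNA, made up 13.0% of all counts in HFD 4, 1.03% in HFD 30 and 2.72% in HFD 38, against 0.0127% to 0.0246% in Chow. This RNA measure therefore moved with the diet groups. With it and the other most abundant transcripts left out, 9 genes were called, which were the 10 described below except Ighv3-6. The median level of 18 enterocyte markers was also low in HFD 4, at -0.81 on the log2 scale relative to the Chow mean, against 0.27 and 0.29 in HFD 30 and HFD 38. HFD 38 lay nearer to Chow: across genes, its log2 CPM correlated at 0.977 with Chow 17 and 0.974 with Chow 19, against 0.972 with HFD 30 and 0.953 with HFD 4.

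The results turned most on the Cyp2c cluster of chromosome 19, whose tested genes had fold changes of unequal size. To set these genes side by side, the 250 bases before the RefSeq start of 3 called members are printed, with those of the known PXR target Cyp3a11 for comparison (GRCm38.p6, 5′ to 3′ on the gene's strand). Capitals mark the hexamers AGGTCA and AGTTCA of nuclear receptor sites on either strand, written as TGACCT and TGAACT on the other strand. The windows are chr19:39286835-39287084 on the plus strand for Cyp2c29, chr19:39006769-39007018 on the plus strand for Cyp2c55, chr19:39113648-39113897 on the plus strand for Cyp2c66 and chr5:145879855-145880104 on the minus strand for Cyp3a11.
Cyp2c29: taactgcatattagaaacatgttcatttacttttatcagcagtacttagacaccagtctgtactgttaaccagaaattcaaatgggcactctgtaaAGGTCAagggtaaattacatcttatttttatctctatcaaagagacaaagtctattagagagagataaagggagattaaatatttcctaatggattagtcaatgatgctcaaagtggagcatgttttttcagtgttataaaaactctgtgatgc
Cyp2c55: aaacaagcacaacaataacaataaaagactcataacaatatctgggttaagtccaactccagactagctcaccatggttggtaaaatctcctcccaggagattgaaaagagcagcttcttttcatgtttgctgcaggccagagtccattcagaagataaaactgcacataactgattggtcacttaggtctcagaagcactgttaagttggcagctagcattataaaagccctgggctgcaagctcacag
Cyp2c66: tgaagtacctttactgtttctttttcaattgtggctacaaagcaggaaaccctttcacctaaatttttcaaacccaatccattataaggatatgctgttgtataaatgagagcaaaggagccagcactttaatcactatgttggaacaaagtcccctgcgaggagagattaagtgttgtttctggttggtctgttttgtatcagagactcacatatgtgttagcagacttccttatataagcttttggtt
Cyp3a11: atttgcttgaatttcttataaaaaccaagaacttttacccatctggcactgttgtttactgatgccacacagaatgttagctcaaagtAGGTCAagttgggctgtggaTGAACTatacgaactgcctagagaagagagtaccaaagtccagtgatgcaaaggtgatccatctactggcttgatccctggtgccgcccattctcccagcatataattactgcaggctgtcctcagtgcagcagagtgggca
AGGTCA began 154 bases before the start in Cyp2c29 and 162 before it in Cyp3a11, and 14% of 32851 RefSeq windows of this length hold it. Cyp3a11 also held AGTTCA on the other strand (found in 11.8% of windows), while neither hexamer was in the windows of Cyp2c55 and Cyp2c66. The word TATAAA stood 29 bases before the start of Cyp2c55 and 19 before that of Cyp2c29, and is in 12.4% of windows. These matches describe the letters only. RefSeq's start for Cyp2c29 lies inside the deposited gene model, which runs from 39269405 to 39330713. That for Cyp3a11 also lies inside its deposited model, which runs from 145854426 to 145879964, so part of its window does too. Of the 10 called genes, 7 had a window.

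On the diet 9 genes fell and 1 rose among 15278 tested, which is 0.0655% of them (0.0589% lower and 0.00655% higher). The tested genes are those of the 28066 listed that passed a filter on low counts. The genes that fell were 3 P450 enzymes, the glutathione transferase Gstm1, the apolipoprotein L gene Apol10a, the antimicrobial lectin Reg3b, the pentraxin Mptx2 and 2 immunoglobulin variable segments. The gene that rose was Siglec1, the sialoadhesin of macrophages. All were called by edgeR's quasi-likelihood test at a Benjamini-Hochberg adjusted p under 0.05. Levels below are in CPM after TMM scaling, unless said otherwise.

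**Figure D1:**
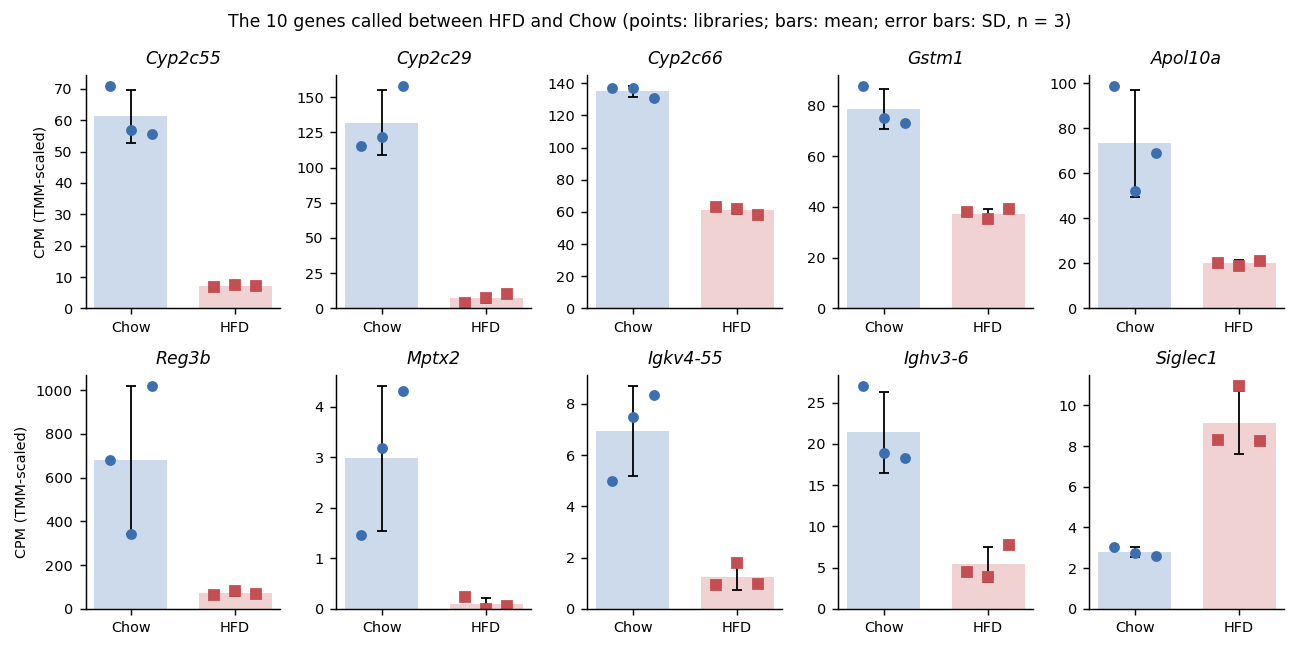
Level of each of the 10 called genes in each library (y axis: TMM-scaled CPM, from 0), Chow in blue circles and HFD in red squares, with the group mean as a bar and the SD as an error bar (n = 3). In each panel the 3 HFD libraries lie outside the range of the 3 Chow libraries; Siglec1 is the gene with the higher HFD values.

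Cyp2c55 (ENSMUSG00000025002, chromosome 19, 39007019 to 39042693), an enzyme that oxidises arachidonic and linoleic acid, stood at 6.86, 7.34 and 7.04 CPM in HFD 4, 30 and 38 and at 71.0, 57.0 and 55.7 CPM in Chow 8, 17 and 19. The HFD libraries lay close together and far from Chow, with a fold change of -3.10 on the log2 scale (SE 0.17) and an edgeR adjusted p of 2.61e-05. Cyp2c29 (ENSMUSG00000003053, chromosome 19, 39269405 to 39330713), a P450 induced by CAR and PXR ligands, stood at 3.78, 7.34 and 10.3 CPM on HFD and 115, 121 and 158 CPM on Chow. It had the largest fall of the 3 P450 genes, at -4.12 (SE 0.29, edgeR adjusted p = 0.000421), and its HFD libraries spread more than those of Cyp2c55. Cyp2c66 (ENSMUSG00000067229, chromosome 19, 39113898 to 39187072), an intestinal member of the family, stood at 62.9, 61.8 and 58.4 CPM on HFD and 137, 137 and 131 CPM on Chow. The fall of Cyp2c66 was smaller but very even between libraries, at -1.15 (SE 0.14, edgeR adjusted p = 0.0199).

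Gstm1 (ENSMUSG00000058135, chromosome 3, 108012255 to 108017973), which joins glutathione to electrophiles, stood at 37.8, 35.3 and 39.1 CPM on HFD and 87.8, 75.0 and 73.0 CPM on Chow. The groups did not overlap, and the fold change of -1.07 on the log2 scale had an SE of 0.15 and an edgeR adjusted p of 0.0399. Apol10a (ENSMUSG00000050982, chromosome 15, 77477047 to 77491069) stood at 20.3, 19.1 and 21.3 CPM on HFD and 98.9, 51.9 and 69.0 CPM on Chow, so that Chow varied far more than HFD (fold change -1.86, SE 0.22, edgeR adjusted p = 0.0199). Reg3b (ENSMUSG00000071356, chromosome 6, 78370657 to 78373466), a lectin that enterocytes and Paneth cells secrete against bacteria, stood at 62.4, 83.5 and 65.5 CPM on HFD and 678, 342 and 1019 CPM on Chow. The fall of Reg3b was -3.27 (SE 0.37, edgeR adjusted p = 0.0257), and its Chow libraries spread widely without reaching the HFD range.

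Siglec1 (ENSMUSG00000027322, chromosome 2, 131069220 to 131086765) stood at 8.28, 11.0 and 8.23 CPM on HFD and 3.05, 2.74 and 2.58 CPM on Chow, a rise of 1.73 (SE 0.25, edgeR adjusted p = 0.0481). Mptx2 (ENSMUSG00000079180, chromosome 1, 173274382 to 173277777), a mucosal pentraxin of Paneth cells, stood at 0.237, 0 and 0.0568 CPM on HFD and 1.46, 3.17 and 4.30 CPM on Chow (edgeR adjusted p = 0.0403). Its mean of 17.7 counts leaves the size of the fall poorly defined. Igkv4-55 stood at 0.946, 1.81 and 0.965 CPM on HFD and 4.99, 7.50 and 8.36 CPM on Chow, and Ighv3-6 at 4.49, 3.90 and 7.78 against 27.0, 18.9 and 18.3 CPM (edgeR adjusted p = 0.0481 for both segments). Related Cyp2c, Gstm, Reg3, defensin and immunoglobulin genes share sequence, and how reads matching several of them were counted is not given in the sources used here.

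Cyp2c29 and Cyp2c55 were called without any 1 of the 6 libraries. Cyp2c66 was also called without HFD 4 or HFD 38 but not without HFD 30, Chow 8, Chow 17 or Chow 19, and Gstm1 was called only when the library left out was HFD 38. Apol10a lost its call without HFD 4 or HFD 30, and Reg3b without HFD 4, HFD 30 or Chow 8. Siglec1, Igkv4-55 and Ighv3-6 were called only when HFD 38 was left out, and Mptx2 when HFD 38 or Chow 8 was. Leaving out HFD 4, the library that stood apart, gave fold changes of -3.09 for Cyp2c55, -3.91 for Cyp2c29, -1.17 for Cyp2c66, -1.87 for Apol10a, -1.08 for Gstm1, -3.20 for Reg3b and 1.78 for Siglec1. The falls and the rise were therefore nearly as large without that library, while 8 genes were then called, of which 3 were the Cyp2c genes above.

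Beyond the 10 called genes no difference passed the edgeR test. With an unadjusted p under 0.05 stood 1581 genes (10.3% of those tested), 879 higher on HFD (5.75%) and 702 lower (4.59%). This count depended on single libraries: it was 692 without Chow 19, 973 without HFD 30, 1041 without Chow 8, 2020 without HFD 4, 2151 without Chow 17 and 2254 without HFD 38. The shares higher and lower were then 2.40% and 2.27% without Chow 19, 3.17% and 3.35% without HFD 30, and 3.16% and 3.25% without Chow 8. They were 7.11% and 5.32% without HFD 4, 7.40% and 5.81% without Chow 17, and 7.95% and 7.13% without HFD 38. The 3 HFD libraries lay outside the Chow range for 2490 genes (16.3%), 1244 above (8.14%) and 1246 below (8.16%). DESeq2, run on the same counts, called 134 genes (0.833%), 55 higher and 79 lower, with all 10 edgeR calls among them. The median log2 fold change over all tested genes was 0.0046. Gene groups are described against these shares, those without a library against the shares of the same fit, and no gene named from here on passed the edgeR test unless it is one of the 10.

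Most tested members of the Cyp2c family had negative fold changes. Of 7 tested members, 6 had negative fold changes and 5 were lower at an unadjusted p under 0.05, against 4.59% of all genes. The family median of -1.15 is the value of its middle member, the called Cyp2c66. The library medians on the log2 scale relative to Chow were -1.10, -1.12 and -1.21 in HFD 4, 30 and 38. They follow Cyp2c66 too, and their evenness is that of this gene. Cyp2c29 and Cyp2c38 varied more between the HFD libraries. Cyp2c38 stood at 3.55, 2.04 and 5.05 CPM on HFD and 13.8, 8.95 and 22.5 CPM on Chow (-2.10, SE 0.41, edgeR adjusted p = 0.159), and Cyp2c65 at -0.54 (SE 0.18). Cyp2c68 (-0.25, SE 0.16) and Cyp2c67 (0.00, SE 0.42) overlapped between groups. The fold changes of these neighbouring genes ran from -4.12 to 0.00, and differences between members were not tested.

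Cyp3a11, the main drug-oxidising P450 of mouse gut and liver, stood at 417, 747 and 534 CPM on HFD and 2372, 1874 and 1549 CPM on Chow. The groups were far apart, but the log2 fold change of -1.77 (SE 0.28) just missed the threshold at an edgeR adjusted p of 0.0611. Cyp3a25 stood at 106, 175 and 181 against 335, 278 and 360 CPM (-1.07, SE 0.22, edgeR adjusted p = 0.159). All 5 tested Cyp3a genes had negative fold changes (median -0.79) and 4 did not overlap between groups. Of 18 further P450 genes and their electron donors, 7 had an unadjusted p under 0.05, all lower. Among them were Cyp2j9 (-1.60, SE 0.28), Cyp2j6 (-1.42, SE 0.33), the CAR target Cyp2b10 (-1.14, SE 0.21) and Cyp1b1 (-1.24, SE 0.28). Without HFD 4, 5 of the 18 were higher and 7 lower. The median of these 18 was only -0.10 (0.04 without HFD 4, -0.39 without HFD 38), with Cyp4f14 at 0.38 (SE 0.22) and the reductase Por at 0.30 (SE 0.23), so the low values were those of particular genes and not of P450 enzymes as a class.

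**Figure D2:**
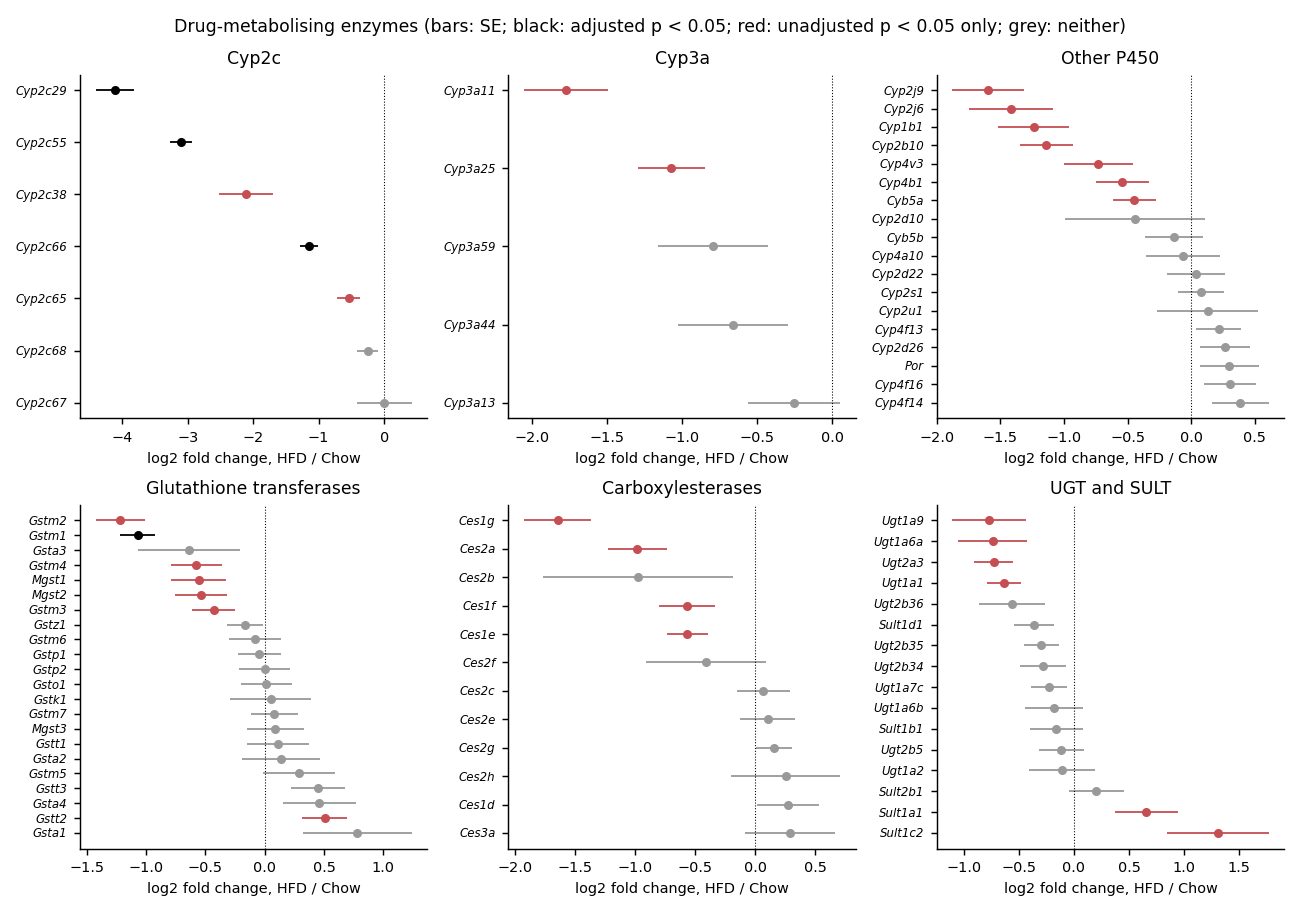
Log2 fold change of HFD over Chow (x axis) with its SE for each tested gene of 6 enzyme groups, black where the adjusted p was under 0.05, red where only the unadjusted p was, grey otherwise. Cyp2c genes run from -4.12 to 0.00, all 5 Cyp3a genes lie below 0, and the glutathione transferases lie on both sides.

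Conjugating and hydrolysing enzymes also lay on both sides of 0. Among 22 glutathione transferases 11 fold changes were positive and 11 negative. The 6 lower genes at an unadjusted p under 0.05 were the mu-class genes Gstm1, Gstm2 (-1.22, SE 0.21), Gstm3 and Gstm4 and the microsomal Mgst1 and Mgst2, while Gstt2 stood at 0.51 (SE 0.19). Only 2 transferases were lower without HFD 30 or Chow 8 and 3 without Chow 19, and 3 were higher without HFD 4. Ces1g, a carboxylesterase that hydrolyses lipid esters, stood at 5.20, 6.76 and 9.88 CPM on HFD and 21.4, 17.5 and 31.4 CPM on Chow (-1.65, SE 0.28, edgeR adjusted p = 0.0976). Ces2a stood at -0.98 (SE 0.24) and the median of 12 carboxylesterases at -0.17, which was -0.11 without HFD 38, -0.0032 without Chow 8 and -0.32 without Chow 19. Of 16 glucuronosyl- and sulfotransferases 13 were negative, with the bilirubin-conjugating Ugt1a1 at -0.64 (SE 0.15) and Ugt2a3 at -0.73 (SE 0.18), whereas the sulfotransferase Sult1c2 stood at 1.30 (SE 0.46).

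The genes of PXR, CAR and the aryl hydrocarbon receptor, which control many of these enzymes, overlapped between the groups. Nr1i2, which encodes PXR, stood at 162, 217 and 170 CPM on HFD and 171, 116 and 159 CPM on Chow (fold change 0.30, SE 0.19). Nr1i3, which encodes CAR, was at 0.30 (SE 0.24) and the aryl hydrocarbon receptor Ahr at 0.02 (SE 0.18). Of 17 nuclear receptors and partners 2 were higher at an unadjusted p under 0.05, Ppard (0.63, SE 0.20) and the small heterodimer partner Nr0b2 (1.36, SE 0.44), and 1 was lower, Hnf4g (-0.57, SE 0.22), all 3 without overlap. With 1 library left out 2 to 4 were higher and 0 to 2 lower. Drug transporters had a median of 0.02 over 14 genes, and the only one with an unadjusted p under 0.05 was the peptide carrier Slc15a1 (lower), with 3 lower without HFD 30 and 0 without Chow 19.

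The 3 HFD Vehicle libraries (23, 50 and 55) were sequenced from injected mice and counted in a second table. In them the levels of Cyp2c55, Cyp2c29 and Cyp3a11 also lay below those of Chow. In CPM over the library total, Cyp2c55 stood at 2.33, 5.58 and 8.13 there, against 5.89 to 7.41 in HFD and 61.1 to 70.6 in Chow. Cyp2c29 stood at 13.6, 24.2 and 23.3, against 3.25 to 10.8 in HFD and 115 to 174 in Chow, and Apol10a at 14.4, 17.8 and 20.5, against 17.5 to 22.4 and 56.1 to 98.3. Siglec1 did not follow: its HFD Vehicle levels of 3.00, 1.98 and 6.63 did not exceed the Chow range of 2.83 to 3.03 in 2 libraries and lay below the HFD range of 7.11 to 10.2 in all 3. Cyp3a11 ranged from 129 to 1214 within HFD Vehicle, all below the lowest Chow library at 1701. The summed level of the further P450 genes and their electron donors was 1531, 3373 and 3904 CPM in HFD Vehicle 23, 50 and 55. In Chow it was 3613 to 4544 CPM, so these sums overlapped. The other called genes are not given for HFD Vehicle here. HFD Vehicle 23, which had the lowest Cyp2c55 and Cyp3a11 levels, also had a summed level of the enterocyte markers of 14534 CPM, against 40758 and 60751 in HFD Vehicle 50 and 55 and 47988 to 60418 in Chow. In HFD Vehicle 55, where that sum was as high as in Chow, Cyp2c55 stood at 8.13 and Cyp3a11 at 1214. Summed heat shock chaperones were at 11926 and 12610 CPM in HFD Vehicle 23 and 50, against 1313 to 4134 in Chow, and their part in these levels was not tested. Injection and table differ along with the group here, so these levels were not tested against HFD or Chow.

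Genes for the digestion of peptides had mostly negative fold changes, and those for sugars mostly positive ones. Of 16 brush border and cytosolic peptidases 15 had negative fold changes, 8 were lower at an unadjusted p under 0.05 and none higher, and the median was -0.75. Aminopeptidase N (Anpep) stood at 1222, 1150 and 2530 CPM on HFD and 3821, 3130 and 5015 CPM on Chow, and glutamyl aminopeptidase (Enpep) at 413, 367 and 814 against 1317, 950 and 1600 CPM. Neither gene overlapped between groups, with HFD 38 nearest to Chow in both (log2 fold changes -1.29, SE 0.35, and -1.28, SE 0.33, edgeR adjusted p = 0.294 and 0.259). Naaladl1 (-1.59, SE 0.33), Xpnpep2 (-1.27, SE 0.33) and the meprin subunits Mep1a (-0.96, SE 0.26) and Mep1b (-0.74, SE 0.22) were also without overlap, while gamma-glutamyltransferase Ggt1 was at 0.15 (SE 0.22). The library medians of the peptidases were -1.43, -0.77 and -0.33 in HFD 4, 30 and 38, and without HFD 4 the median fold change was -0.50, with 6 of 16 lower at an unadjusted p under 0.05. Without HFD 38 it was -1.16, with 10 lower.

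Carriers of amino acids and peptides had a median of -0.27 over 17 genes, 14 of them negative and 5 lower at an unadjusted p under 0.05. These 5 were the imino acid carrier Slc6a20a (-1.05, SE 0.24) and its relative Slc6a20b (-1.94, SE 0.40), the proton-coupled carrier Slc36a1 (-1.34, SE 0.32), the aromatic amino acid exporter Slc16a10 (-0.88, SE 0.23) and the peptide carrier PepT1 (Slc15a1). Slc15a1 stood at 155, 324 and 386 CPM on HFD and 529, 389 and 772 CPM on Chow, with HFD 38 close to Chow 17. Without HFD 4 the median was -0.14. The main neutral amino acid carrier Slc6a19 was at -0.28 (SE 0.34) and overlapped.

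Of 20 genes of sugar digestion, transport and metabolism 16 had positive fold changes (median 0.38), with 6 higher and 1 lower at an unadjusted p under 0.05. The ketohexokinase gene Khk, which starts fructose breakdown, stood at 227, 308 and 281 CPM on HFD and 183, 182 and 202 CPM on Chow (0.53, SE 0.17). Fructose bisphosphatase Fbp1 stood at 43.3, 53.3 and 48.5 against 19.7, 30.0 and 30.4 CPM (0.86, SE 0.19), and triokinase Tkfc at 0.78 (SE 0.24), all without overlap. The pyruvate kinase Pklr (0.57, SE 0.18), the glucose carrier Slc2a1 (0.76, SE 0.25) and the carbohydrate-sensing factor Mlxipl (0.78, SE 0.26) were the other higher genes, and the SGLT3 gene Slc5a4a (-0.92, SE 0.31) the lower one. Sucrase-isomaltase (Sis) stood at 5796, 6021 and 7485 CPM on HFD and 4230, 4468 and 5561 CPM on Chow, which did not overlap but gave an SE of 0.29 on a fold change of 0.44. Without HFD 4 the median was 0.50 and 14 of the 20 were higher at an unadjusted p under 0.05, against 7.11% of all genes in that fit. The difference between the peptide and the sugar genes was not tested as such.

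**Figure D3:**
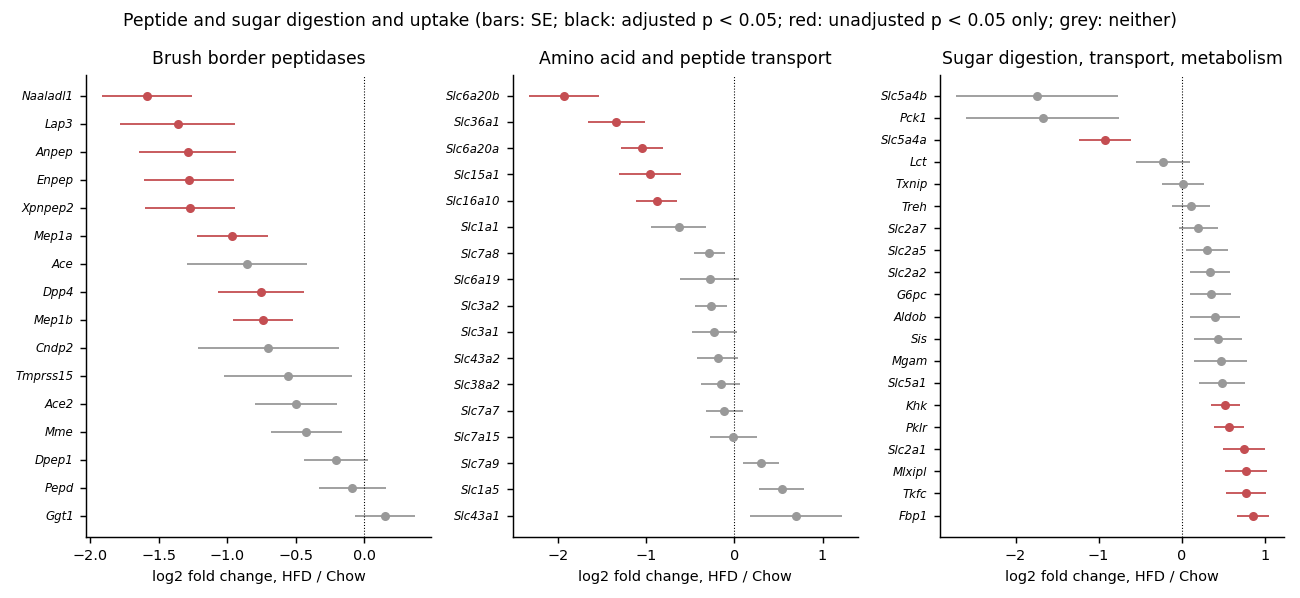
Log2 fold change of HFD over Chow (x axis) with its SE for the tested genes of peptide digestion, amino acid and peptide transport, and sugar handling; red marks an unadjusted p under 0.05, grey the rest, and none had an adjusted p under 0.05. Peptidases lie to the left of 0 in 15 of 16 cases and sugar genes to the right in 16 of 20.

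Genes of fat absorption lay around the median of all genes when all libraries were used. The 28 tested genes of fatty acid uptake, re-esterification and chylomicron assembly had a median of 0.01, with 14 positive and 14 negative. Apoa4, an apolipoprotein that enterocytes add to chylomicrons during fat absorption, stood at 2790, 8014 and 10363 CPM on HFD and 5606, 5268 and 8555 CPM on Chow (0.12, SE 0.45), with HFD 4 as the lowest library. Fabp1 (-0.04, SE 0.40), Mttp (-0.13, SE 0.25) and Apob (-0.25, SE 0.37) also overlapped, and the fatty acid translocase Cd36 stood at 24.8, 37.9 and 87.2 against 96.7, 81.8 and 156 CPM (-1.14, SE 0.49). The lipid droplet protein Plin2 (0.48, SE 0.19) and the acyltransferase Dgat2 (0.76, SE 0.32) were the 2 genes with an unadjusted p under 0.05. This group depended on HFD 4: its library medians were -0.60, 0.29 and 0.28 in HFD 4, 30 and 38, and without HFD 4 the median was 0.26, with 11 of 28 genes higher at an unadjusted p under 0.05 and none lower. Without HFD 38 the median was -0.14, with 4 lower and none higher.

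Fatty acid oxidation had a median of 0.04 over 28 genes, with the carnitine palmitoyltransferase Cpt1a at 0.07 (SE 0.14). Of 22 targets of PPARα, the receptor that fatty acids activate, 3 were higher and 3 lower at an unadjusted p under 0.05. The split was 2 higher and 6 lower without HFD 38, and 0 higher and 1 lower without Chow 19. Among the lower ones were the pantetheinase Vnn1 (12.2 ± 4.30 CPM on HFD and 37.3 ± 11.4 on Chow, SD, n = 3 each, -1.57, SE 0.28) and the pyruvate dehydrogenase kinase Pdk4 (-0.59, SE 0.24). Nuclear genes of the respiratory chain had a median of 0.27 over 32, with 27 positive and 7 higher at an unadjusted p under 0.05, among them Sdhc (0.52, SE 0.17) and Ndufs3 (0.41, SE 0.15). Without HFD 4 their median was 0.40 and 17 were higher. Only 3 were higher without HFD 30 (median 0.25, 3.17% of all genes), 1 without HFD 38 (0.15, 7.95%) or Chow 8 (0.21, 3.16%), and none without Chow 19 (0.22, 2.40%). Cholesterol synthesis genes had a median of -0.25 over 26, with 21 negative, and 3 were lower at an unadjusted p under 0.05, Stard4 (-0.55, SE 0.19), Fdft1 (-0.43, SE 0.18) and Sqle (-0.59, SE 0.26). This count was 10 without HFD 38 (median -0.38, 7.13% of all genes lower in that fit), 1 without HFD 30 (3.35%) or Chow 17 (5.81%) and 0 without Chow 19 (2.27%). The sterol importer Npc1l1 (-0.36, SE 0.23) overlapped between groups.

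Markers of T cells and of macrophages gave medians on opposite sides of 0. Of 23 markers of T and NK cells 22 had negative fold changes, 15 were lower at an unadjusted p under 0.05 and none higher, and the median was -1.10. The gamma-delta receptor constant gene Trdc stood at 0.946, 1.17 and 1.25 CPM on HFD and 6.94, 2.89 and 3.75 CPM on Chow (-1.95, SE 0.40, edgeR adjusted p = 0.156). Granzyme B (Gzmb), a killing protease, stood at 6.86, 14.6 and 6.64 against 27.7, 23.2 and 24.8 CPM (-1.39, SE 0.29), and neither gene overlapped. The exception was Cd4, at 8.75, 9.32 and 9.37 CPM on HFD and 6.94, 7.94 and 7.80 CPM on Chow. The library medians were -1.94, -0.55 and -1.25 in HFD 4, 30 and 38, and without HFD 4 the median fold change was -0.92 with 12 lower at an unadjusted p under 0.05. The fewest, 9, were lower without Chow 8 (median -0.94). In whole tissue, fewer cells of a type and less RNA per cell cannot be told apart.

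MHC class II genes had a median of -0.50 over 12, with 7 negative and 5 positive fold changes. At an unadjusted p under 0.05, 5 were lower and none higher, but the Chow libraries differed widely among themselves. The invariant chain Cd74 stood at 143, 206 and 239 CPM on HFD and 692, 452 and 259 CPM on Chow (-1.25, SE 0.34), with Chow 19 close to HFD 38. The class II median was -1.11 without HFD 38, -0.78 without Chow 19 and -0.34 without Chow 8 or Chow 17, and 3 genes were lower without HFD 4. Of 105 tested immunoglobulin variable segments 80 had negative fold changes (median -0.86), 26 were lower and 3 higher at an unadjusted p under 0.05. Their summed level nevertheless overlapped, at 921, 509 and 769 CPM in HFD 4, 30 and 38 and 719, 1005 and 531 CPM in Chow 8, 17 and 19, and the secretory constant gene Igha (-0.27, SE 0.42) and the joining chain Jchain (-0.42, SE 0.28) overlapped too.

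Macrophage markers had a median of 0.45 over 20, with 16 positive and 7 higher at an unadjusted p under 0.05. Beside the called Siglec1 these were the fractalkine receptor Cx3cr1, the mannose receptor Mrc1, the Fc receptor Fcgr1 and the complement genes C1qa, C1qb and C1qc. Cx3cr1 stood at 7.81, 7.22 and 8.57 CPM on HFD and 3.17, 3.32 and 3.32 CPM on Chow (1.26, SE 0.24, edgeR adjusted p = 0.127), and Mrc1 at 24.1, 19.0 and 18.4 against 10.7, 14.4 and 11.8 CPM. The general markers Csf1r (0.20, SE 0.19), Adgre1 (0.25, SE 0.30) and Cd68 (0.53, SE 0.37) overlapped between groups. The library medians were 0.49, 0.57 and 0.46 in HFD 4, 30 and 38 and -0.11, 0.31 and -0.08 in Chow 8, 17 and 19, so Chow 17 came near to HFD. With any 1 library left out the median fold change was 0.41 to 0.50. The summed level of these markers was 607, 853 and 698 CPM in HFD 4, 30 and 38. In Chow 8, 17 and 19 it was 678, 619 and 620 CPM, so the sums overlapped, with HFD 4 lowest. Of 36 interferon-induced genes (median 0.23) 3 were higher and 3 lower at an unadjusted p under 0.05, but 10 were higher and 3 lower without HFD 4 (median 0.35), and 0 higher and 6 lower without HFD 30 (-0.26). In the fit of all 6 libraries the immunity GTPases Iigp1 (-1.05, SE 0.23) and Irgm2 (-0.84, SE 0.22) and the chemokine Cxcl9 (-1.02, SE 0.36) were the lower ones, and the oligoadenylate synthetases Oas2 (1.18, SE 0.41), Oas1a (0.99, SE 0.38) and Oas1g (0.83, SE 0.35) the higher ones.

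Genes of fibroblasts and matrix had a median of 0.42 over 22, with 8 higher and none lower at an unadjusted p under 0.05. The chains of collagen VI, a microfibril collagen, were among them. Col6a1 stood at 95.1, 76.7 and 70.9 CPM on HFD and 34.1, 50.8 and 37.9 CPM on Chow (0.98, SE 0.19, edgeR adjusted p = 0.127), Col6a2 at 0.86 (SE 0.17) and Col6a3 at 0.78 (SE 0.19), all 3 without overlap. Fibroblast genes such as Dcn (-0.59, SE 0.33) and Dpt (-0.42, SE 0.34) had negative values, and Pdgfra was at 0.28 (SE 0.15). The library medians of the 22 genes were 0.68, 0.33 and 0.29 in HFD 4, 30 and 38, with Chow 17 close at 0.26. Their summed level was 1099, 828 and 820 CPM in HFD 4, 30 and 38. In Chow 8, 17 and 19 it was 559, 822 and 643 CPM, so the sums overlapped. Endothelial genes had a median of 0.21 over 17, with Eng (0.87, SE 0.28), Esam (0.58, SE 0.24) and Pecam1 (0.37, SE 0.16) higher at an unadjusted p under 0.05. Only 1 was higher without HFD 30 or Chow 19, and the library medians overlapped, at 0.28, 0.08 and 0.42 in HFD 4, 30 and 38 and up to 0.30 in Chow 17. Smooth muscle genes, which mark the muscle layers of the gut wall, had a library median of 0.88 in HFD 4 and of -0.16 and -0.39 in HFD 30 and HFD 38, and their part in the matrix values was not tested. Without HFD 4 the fibroblast median was 0.28 with 5 higher and 1 lower, and the smooth muscle median -0.38. Without Chow 8 the fibroblast median was 0.26, with 4 higher and 2 lower.

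**Figure D4:**
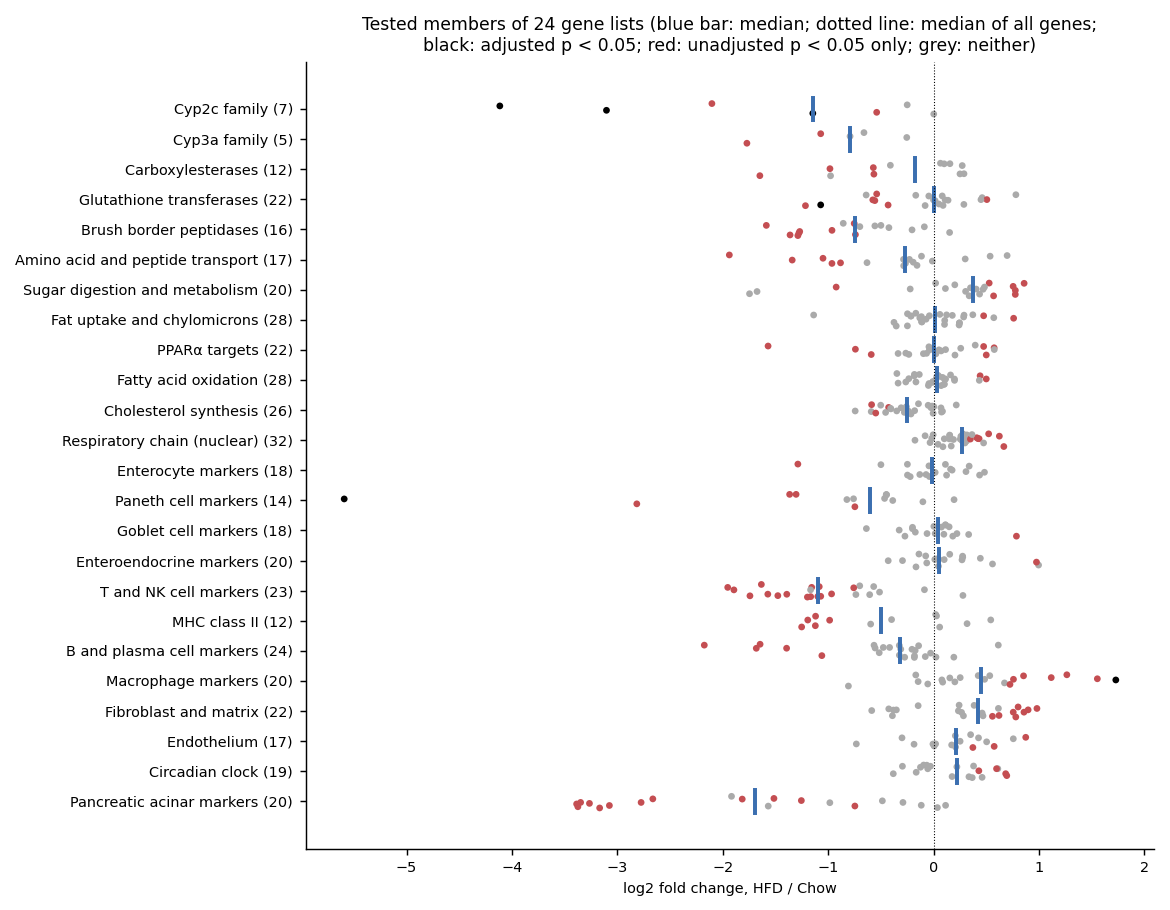
Log2 fold change of HFD over Chow (x axis) of each tested member of 24 gene lists (number of members in brackets), with the list's median as a blue bar and the median of all genes as a dotted line; black marks an adjusted p under 0.05, red an unadjusted p under 0.05, grey the rest. The medians of Cyp2c genes (-1.15), T and NK markers (-1.10), peptidases (-0.75) and acinar markers (-1.69) lie to the left, and those of macrophage (0.45), matrix (0.42) and sugar genes (0.38) to the right.

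Among epithelial cell types, the markers of goblet cells (median 0.05 over 18), enteroendocrine cells (0.05 over 20) and tuft cells (0.03 over 15) gave medians near that of all genes, and the main goblet mucin Muc2 stood at -0.06 (SE 0.24) and the incretin Gip at 0.28 (SE 0.19). Paneth cell markers had a median of -0.61 over 14, with 13 negative and 5 lower at an unadjusted p under 0.05, 4 of them besides the called Mptx2. Their median was -0.37 without HFD 30 and 2 were lower without Chow 19 (2.27% of all genes in that fit). The library medians were -0.15, -1.48 and -0.59 in HFD 4, 30 and 38. In Chow 8, 17 and 19 they were -0.50, 0.28 and 0.11, so the groups overlapped, as did the summed levels. The lysozyme gene Lyz1, a classic Paneth cell marker, stood at 482, 174 and 285 CPM on HFD and 217, 388 and 401 CPM on Chow and overlapped (-0.10, SE 0.37). Reg3g, the neighbour and relative of Reg3b, stood at 25.1, 11.4 and 28.7 against 115, 72.0 and 180 CPM (-2.51, SE 0.46, edgeR adjusted p = 0.195), while the other family members Reg1 (0.04, SE 0.32) and Reg4 (0.10, SE 0.16) overlapped. Stem cell markers had a median of -0.13 over 22 (-0.29 without HFD 4, 0.03 without HFD 30), with Lgr5 at -0.20 (SE 0.26), and the proliferation gene Mki67 was at -0.49 (SE 0.29).

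Markers of pancreatic acinar cells had the lowest median of the 59 lists, -1.69 over 20 genes, with 12 lower and none higher at an unadjusted p under 0.05. The carboxypeptidase Cpa1 stood at 2.84, 4.54 and 0.0568 CPM on HFD and 18.4, 27.7 and 28.6 CPM on Chow, and the elastase Cela3b at 0, 0.699 and 0.114 against 2.19, 4.76 and 4.18 CPM. The median was -2.72 without HFD 30 and -1.35 without HFD 38, and 8 were lower without HFD 4 (5.32% of all genes) and 6 without Chow 19 (2.27%). The trypsinogen Prss2 was at 0 to 4.85 CPM and overlapped. The summed level of the list overlapped, at 1673, 2796 and 1957 CPM in HFD 4, 30 and 38 and 2049, 2641 and 1816 CPM in Chow 8, 17 and 19. Most of this sum came from Reg1 (group means 1105 CPM on HFD and 1078 on Chow) and Zg16 (932 and 862 CPM), which the gut epithelium also makes, whereas Cpa1 averaged 2.48 and 24.9 CPM. These enzymes are products of the pancreas, which lies against the duodenum. How much pancreas entered each sample is not given in the labels, and its part in other results was not tested.

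**Figure D5:**
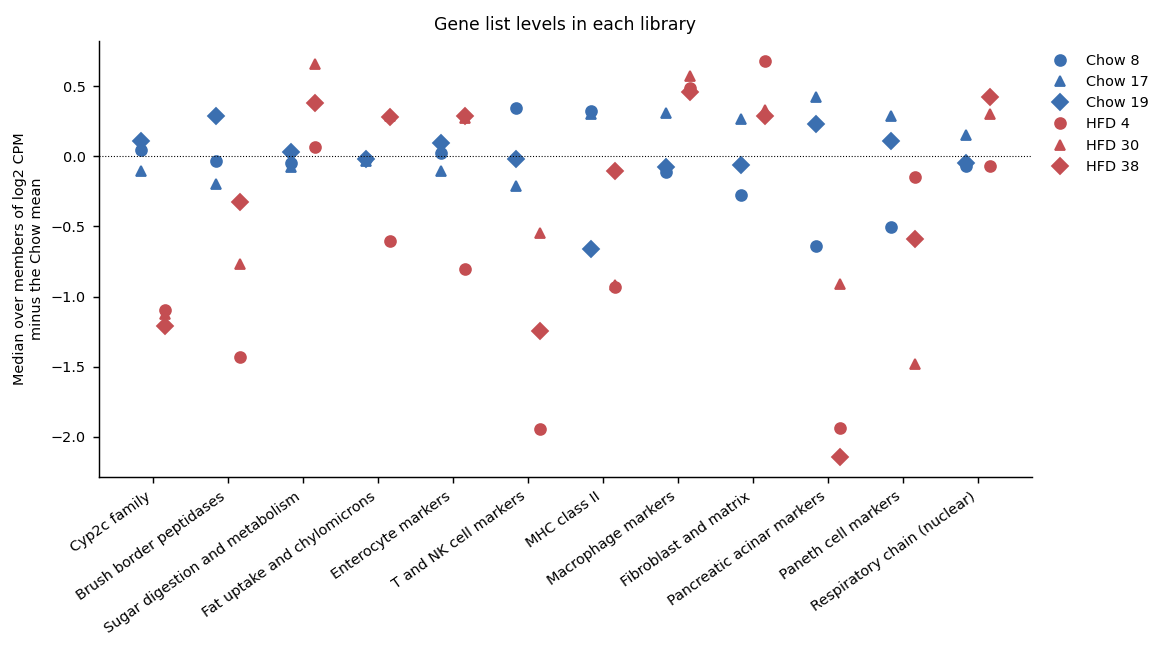
Level of 12 gene lists in each library (y axis: median over the list's tested members of log2 CPM minus the Chow mean), Chow in blue and HFD in red, with a marker shape per library. Cyp2c levels lie between -1.10 and -1.21 in the 3 HFD libraries, where they follow the middle member Cyp2c66. Enterocyte and fat uptake levels are low in HFD 4 (-0.81 and -0.60) and above Chow in HFD 30 and HFD 38.

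Of the circadian clock, 4 of 19 genes were higher at an unadjusted p under 0.05: Hlf, Per3, Per2 and Per1, a count that was 2 without HFD 30 or Chow 8. Hlf, a transcription factor driven by the clock, stood at 43.1, 47.0 and 39.7 CPM on HFD and 25.5, 29.0 and 25.8 CPM on Chow (0.69, SE 0.15, edgeR adjusted p = 0.178), and Per3 at 52.5, 50.9 and 48.0 against 25.6, 33.0 and 35.3 CPM. The core genes Arntl (-0.12, SE 0.20) and Nr1d1 (-0.16, SE 0.19) overlapped, and the hour of sampling is not given in the labels. Iron genes had a median of 0.24 over 16 (0.11 without HFD 30), in which the duodenal importer Slc11a2 (1.75, SE 0.85) and the exporter Slc40a1 (1.27, SE 1.43) varied widely between libraries. Genes of the unfolded protein response of the endoplasmic reticulum had a median of -0.18 over 24, with 22 negative and 5 lower at an unadjusted p under 0.05, among them the chaperone Pdia4 (-0.55, SE 0.22). Only 1 was lower without HFD 30 or Chow 17 (median -0.04 in the second case), and 2 without Chow 8 (median -0.29).

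Apart from the called genes and the lists, the genes with the smallest p in each direction were taken, 15 higher and 15 lower. Each had at least 20 counts on average and no overlap between groups. Predicted genes, pseudogenes, clone-named genes and immune receptor segments were left out. The ribosomal RNA CT010467.1 was left out by its clone name. It had the largest log2 fold change of all tested genes, at 8.61 (edgeR adjusted p = 0.0611). For the genes taken, the edgeR adjusted p ranged from 0.0611 to 0.156 for the higher and from 0.0611 to 0.159 for the lower ones. Among the higher genes Depp1, which FOXO factors and fasting induce, stood at 3.55, 4.89 and 3.18 CPM on HFD and 0.609, 1.01 and 0.430 CPM on Chow (2.60, SE 0.41). The activin subunit gene Inhbb stood at 10.2, 10.7 and 6.47 against 1.58, 3.61 and 1.54 CPM (2.07, SE 0.37), and Igfbp3, which binds insulin-like growth factors, at 91.1, 77.1 and 64.2 against 40.7, 37.8 and 42.6 CPM (0.93, SE 0.16). The others included the laminin chain Lama5 (1.28, SE 0.24), the bradykinin receptor Bdkrb2 (1.34, SE 0.22), the receptor kinases Axl (0.94, SE 0.19) and Flt1 (0.80, SE 0.16), the TWEAK receptor Tnfrsf12a (2.34, SE 0.46), the sialyltransferase St3gal1 (0.94, SE 0.19), Arsa, Rab31 and Tmem160.

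The lower genes of this kind were mostly enzymes already named: Cyp3a11, Cyp3a25, Cyp2b10, Cyp2c38, Cyp2j9, Gstm2, Ces1g and Vnn1 made up 8 of the 15. The kinase Sgk3 stood at 13.7, 15.8 and 17.9 CPM on HFD and 29.6, 29.9 and 33.3 CPM on Chow (-0.95, SE 0.17), and the endothelial lipase Lipg at 2.30 ± 0.793 against 7.23 ± 0.635 CPM (SD, n = 3 each, -1.68, SE 0.32). The hydroxylysine kinase Hykk (-1.45, SE 0.29), the adhesion receptor Adgrd1 (-1.17, SE 0.24), Exph5 (-0.95, SE 0.19), Slc6a20b and Cela3b completed them. All 30 were called by DESeq2, which shares the counts with the edgeR test and is no independent support.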

How the data were processed

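RNA was measured in 6 duodenal libraries, 3 per diet. The authors deposited raw read counts per gene, made with HISAT2, HTSeq and DESeq2 on GRCm38 (mm10), per the submitters' processing notes. Annotation release, strand setting, read filters and versions are not given in the sources used here, and the table's own fold changes and p-values were not used. Of 28066 listed genes, 15278 passed filterByExpr and 12788 were not tested. Positions are those of the deposited table, counted from 1, and were the same as in GENCODE M21 for 26849 genes.

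Counts were fitted with edgeR 4.0.16 in R 4.3.3 (TMM factors, robust quasi-likelihood F-test, HFD against Chow, Benjamini-Hochberg adjustment over all tested genes). SE is approximate: the size of the log2 fold change over the root of F. Counts were simulated for 15278 genes of this comparison, with 100 genes changed 4-fold, 100 changed 2-fold and no library set apart. In them edgeR recovered 94% of 4-fold and 41% of 2-fold changes and called 13 unchanged genes. DESeq2 1.42.0 and limma 3.58.1 served as alternatives. Pairs of libraries within a group were further apart than sampling alone gives (chi-square per degree of freedom 27.4 to 130) and correlated at 0.953 to 0.981.

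The 59 gene lists and the genes in them were chosen with earlier results of these data known, and they are described by counts and medians with no list test. Named genes were each called gene and the 15 further genes of smallest p in each direction that averaged 20 counts or more without overlap. Predicted genes, pseudogenes, clone-named genes and immune receptor segments were left out of the further genes. Up to 5 members by p of each list described were also named, with a fixed set of genes of lipid, sugar and epithelial biology. A few genes under this rule are not reported here. Any other gene named was chosen after its values were seen. List levels per library use log2 CPM with a prior count of 2. Promoter windows are RefSeq's on GRCm38.p6.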

Additional observations from a re-analysis of the deposited data

How the results depend on the processing

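The number of called genes depended on the settings more than the fold changes did. Against 10 called genes, DESeq2 gave 134, limma-voom 6, no filter on low counts 351, a minimum mean count of 20 gave 6, the fit without robust dispersion 5 and a fit of all 12 libraries 2. Leaving out 1 library gave 4 to 63 called genes: 63 without HFD 38, 8 without HFD 4, 5 without HFD 30, 4 without Chow 8, 7 without Chow 17 and 6 without Chow 19. All 10 genes were also called by DESeq2, with median-of-ratios factors, with no filter and without HFD 38. Cyp2c29 was called under each of 16 alternatives, with a log2 fold change of -4.45 to -3.91, and Cyp2c55 under 15, failing in the fit of all 12 libraries (edgeR adjusted p = 0.249). None of the fold changes of 35 named genes followed through the alternatives reversed; 59 of these values lost and 60 gained a call. Scaling by library size alone shifted the median of all genes by -0.15 (log2) and called 12 genes, 9 of them the same, with Siglec1 no longer called. No paired analysis was possible because no library shares its number with another. The list medians of Cyp2c, Cyp3a, peptidase, amino acid carrier, cholesterol, T and NK cell, class II and acinar genes stayed negative, and those of sugar, macrophage, fibroblast and clock genes positive, under that scaling and median-of-ratios factors, while those of fat uptake and glutathione transferases (0.01 each) came to -0.11 and -0.14. The shallowest library was HFD 4, with 4925123 counts. Of simulated 2-fold changes 41% were recovered, so smaller differences may be missed. Larger ones may be missed too. The simulation held many changed genes and no library that stood apart, so its shares need not hold for these libraries. In the real fit Depp1 (2.60), Inhbb (2.07) and Reg3g (-2.51) differed by more than 4-fold and were not called. Changes were simulated only in genes averaging 20 counts or more. Differences in genes with fewer counts may be missed too, which the simulation did not measure.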
